A study of Homo sapiens with 4 samples.

Results

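The genes described here are 46 of the 25369 genes in a read count table from H226 cells, a cultured line of human squamous lung carcinoma. They are 33 centrosomal protein (CEP) genes, the 8 genes of the augmin complex (HAUS1 to HAUS8) and 5 genes of the gamma-tubulin complex (TUBGCP2 to TUBGCP6). They were chosen by gene symbol and by read count, with 10 or more counts required in at least 2 of the 4 libraries. Of 47 rows with matching symbols, 46 passed. The row left out was CEP170P1, with 0 and 1 counts in shp63 libraries against 4 and 3 in shControl libraries. The lowest row kept was CEP19, with 134 and 99 counts in shp63 libraries against 84 and 89 in shControl libraries. The rule used the level of each row and not the difference between groups, but the set was proposed with earlier results of these data known.

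Polyadenylated RNA was sequenced from 2 groups of 2 cultures. The shp63 cultures carried a doxycycline-inducible short hairpin RNA against p63, a transcription factor of basal epithelial cells, and the shControl cultures carried an inducible non-targeting hairpin. All 4 cultures, controls included, received 1 µg/mL doxycycline for 6 days, and the submitters call the 2 cultures of a group independent biological replicates. The labels name 1 construct per group, so that off-target effects of the hairpin and loss of p63 cannot be told apart, and whether the lines are clones is not given in the sources used here.

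The libraries held 51926832 to 53924761 counted reads, so that 1 CPM (counts scaled to a common library size with TMM factors) stood for about 50.1 to 55.4 reads. TP63, the gene of p63, had 30.7 and 30.5 CPM in shp63 libraries against 136 and 137 CPM in shControl libraries, a 4.46-fold lower level. Of the 10 squamous epithelial markers, 9 were lower and 1 (KRT6A) was higher in shp63. Of all tested genes, 37.1% were lower and 36.9% higher. The summed level of the 10 squamous markers was 3204 to 3399 CPM in shp63 libraries and 5027 to 5132 CPM in shControl libraries. KRT17 made up most of that sum, while SOX2 was nearly absent, with at most 0.0598 CPM in shp63 and 0.252 CPM in shControl libraries.

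The centrosome is a pair of centrioles in a protein matrix that nucleates microtubules, and it is copied once per cell cycle. CEP proteins build the centrioles, the appendages that anchor a cilium, and the linker between centrioles. The gamma-tubulin complex starts new microtubules, and augmin brings that complex to the sides of existing spindle microtubules, so that the spindle fills with branched microtubules. In epithelial cells the same centrioles serve the mitotic spindle in dividing cells and the cilium in resting ones.

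Most of these genes were lower after p63 knockdown. Of the 46, 38 fell and 5 rose, judged by edgeR's quasi-likelihood test with Benjamini-Hochberg adjusted p-values below 0.05 over 14901 tested genes, and 3 did not pass. The 38 that fell were 82.6% of the members, where 37.1% of all tested genes fell. The 5 that rose were 10.9%, where 36.9% of all tested genes rose. In either direction 93.5% of the members were called, where 74.0% of all tested genes were. Among the 10027 tested genes with a mean level within the members' range (1.93 to 107 CPM), 40.8% fell and 36.0% rose.

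The falls were mostly moderate. The median log2 fold change was -0.55 over the members and -0.01 over all tested genes, and single members ranged from -2.07 to 0.52. Against a 1.5-fold change (glmTreat in edgeR), 16 members were lower (34.8%, where 10% of all tested genes were). That count was 8 with DESeq2, 11 with limma-voom, 22 with plain library totals and 11 to 14 with a library left out. By the same test 0 members were higher, where 1894 of the 14901 tested genes were. On the higher side 0 members reached an unadjusted p under 0.05, and 0 were called beyond 1.5-fold by DESeq2 or limma-voom. Both shp63 libraries lay below both shControl libraries for 39 members (84.8%, where 43.6% of all tested genes did so). Both lay above for 6 members, where they did so for 6379 of the 14901 tested genes. The groups overlapped for CEP95 alone, where they overlapped for 2024 of the tested genes. With 2 libraries in each group, the smallest p of an exact permutation test (two-sided) on 1 gene is 0.333, so each call rests on the spread that edgeR shares across genes. In these bulk libraries fewer cells that express a gene and less of its RNA per cell cannot be told apart.

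**Figure D1:**
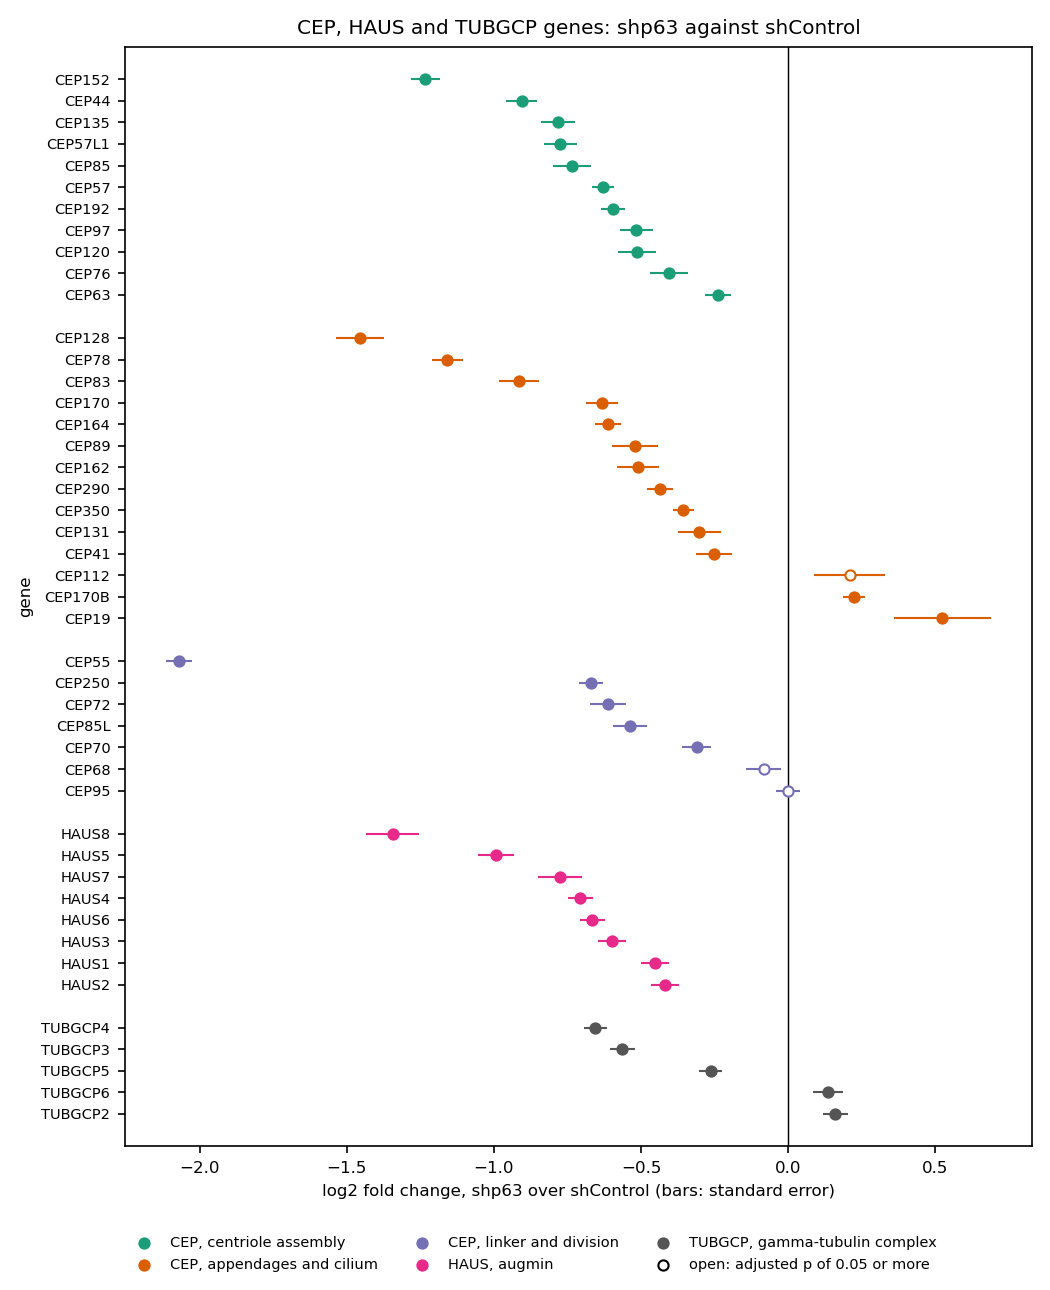
Log2 fold change (x axis, shp63 over shControl) of 45 of the genes (y axis), coloured by role. Points are edgeR estimates, bars are standard errors, and open points had an adjusted p of 0.05 or more. CEP55 lies farthest left at -2.07, all 8 HAUS genes lie left of 0, and CEP19 lies farthest right at 0.52.

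CEP55 fell most. Its protein sits at the midbody, the bridge between daughter cells, and recruits the machinery that cuts it at the end of division. CEP55 had 31.1 and 33.3 CPM in shp63 libraries, against 135 and 136 CPM in shControl libraries. The groups were far apart and the replicates close. The level was 4.20-fold lower in shp63 (log2 fold change -2.07, SE 0.043, adjusted p = 1.19e-20, edgeR with Benjamini-Hochberg), and 1.40% of all tested genes had a lower log2 fold change. Its GRCh37 position is chromosome 10, 95256369 to 95288849, plus strand.

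The next largest falls were those of CEP128, HAUS8 and CEP152. For CEP55, HAUS8 and CEP152 the promoter window (250 bases before to 50 bases after the transcription start, RefSeq, on the gene's strand) is shown because these genes were among the 4 with the largest falls. Each window was found once in GRCh37, at chr10:95256119-95256418 (plus strand) for CEP55, chr19:17186213-17186512 (minus strand) for HAUS8 and chr15:49103217-49103516 (minus strand) for CEP152. Capitals mark matches to the CHR element, the CCAAT box or an E2F site.
CEP55: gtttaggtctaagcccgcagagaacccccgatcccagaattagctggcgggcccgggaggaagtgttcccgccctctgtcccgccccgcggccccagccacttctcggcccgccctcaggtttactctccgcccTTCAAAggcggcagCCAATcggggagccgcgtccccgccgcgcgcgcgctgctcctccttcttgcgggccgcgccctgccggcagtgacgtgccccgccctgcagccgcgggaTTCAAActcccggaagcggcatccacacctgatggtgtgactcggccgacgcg
HAUS8: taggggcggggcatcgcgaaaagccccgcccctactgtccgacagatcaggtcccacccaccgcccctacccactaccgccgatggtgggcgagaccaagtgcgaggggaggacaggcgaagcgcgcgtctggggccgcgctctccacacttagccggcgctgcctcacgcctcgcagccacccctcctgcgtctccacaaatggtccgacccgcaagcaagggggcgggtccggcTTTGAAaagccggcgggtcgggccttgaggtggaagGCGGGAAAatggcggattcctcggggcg
CEP152: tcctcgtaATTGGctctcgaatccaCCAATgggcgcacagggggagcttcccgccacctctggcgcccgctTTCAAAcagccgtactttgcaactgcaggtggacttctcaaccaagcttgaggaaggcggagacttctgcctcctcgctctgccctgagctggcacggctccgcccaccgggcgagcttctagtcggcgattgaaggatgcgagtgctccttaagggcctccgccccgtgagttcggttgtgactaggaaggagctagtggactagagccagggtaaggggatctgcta

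The CHR element (cell cycle genes homology region, searched as TTTGAA or as TTCGAA) and E2F sites are promoter elements known from genes that rise toward mitosis or at the start of S phase. The CEP55 window held the CHR letters on the opposite strand, with first bases 116 and 3 bases before the start, and a CCAAT box 102 bases before it. The HAUS8 window held the CHR letters 14 bases before the start and an E2F match at base 23 after it, on the opposite strand. The CEP152 window held 1 CHR match, 179 bases before the start, and 2 CCAAT boxes. The CEP128 window had no exact match in GRCh37 and held none of these letters.

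Across the 41 members with a RefSeq window, CHR letters were found in 12 (29.3%), against 11.3% of 10665 tested genes and 16.6% of all 27305 windows. E2F letters (TTTGGCGC, or TTTCCCGC, or TTTCGCGC, or TTTGCCGC, on either strand) were found in 6 members (14.6%), against 5.13% of tested genes and 3.33% of all windows. CCAAT boxes were found in 16 members (39.0%), against 36.4% of tested genes and 35.7% of all windows. The CHR letters were in 5 of 13 windows of members lower beyond 1.5-fold and in 7 of 28 windows of the other members. The E2F letters were in 1 of those 13 and 5 of those 28. Among 1043 windows of other tested genes lower beyond 1.5-fold, 21.4% held CHR letters, 8.05% E2F letters and 43.5% CCAAT boxes. These matches describe letters only, and CEP78, CEP250, CEP170B and TUBGCP4 were among the members with no window.

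All 11 CEP genes of centriole assembly and duplication were lower in shp63 (median log2 fold change -0.63, range -1.23 to -0.24, adjusted p at most 4.26e-05, edgeR with Benjamini-Hochberg). The share of all tested genes that were lower was 37.1%. CEP152, a scaffold that binds the duplication kinase PLK4, had 19.4 and 17.7 CPM in shp63 libraries against 43.1 and 44.2 CPM in shControl libraries. It fell 2.35-fold (log2 fold change -1.23, SE 0.048). Its partner CEP63 fell least of the group, with 33.2 and 36.2 CPM in shp63 libraries against 42.0 and 39.8 CPM in shControl libraries, a 1.18-fold lower level. For both partners every shp63 library lay below every shControl library.

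CEP44, which acts when a new centriole matures into a centrosome, had 14.6 and 14.6 CPM in shp63 libraries against 27.2 and 27.4 CPM in shControl libraries. CEP135, a protein of the centriole cartwheel, had 12.4 and 12.5 CPM in shp63 libraries against 21.2 and 21.6 CPM in shControl libraries. CEP57L1, a paralog of the pericentriolar protein CEP57, had 16.2 and 18.1 CPM in shp63 libraries against 30.1 and 28.6 CPM in shControl libraries. These 3 genes fell 1.87-fold, 1.72-fold and 1.71-fold, with shp63 below shControl in every library. CEP85, which limits centrosome separation and binds the assembly factor STIL, fell 1.66-fold. CEP57 itself fell 1.55-fold, and CEP192, the matrix scaffold that recruits PLK4 and Aurora A, fell 1.51-fold. CEP97, part of the cap that limits centriole length, CEP120, which promotes centriole elongation, and CEP76, which limits reduplication, fell 1.43-fold, 1.43-fold and 1.33-fold. In the GENCODE annotation 20.9% of CEP57's exon bases also lie in exons of MTMR2 on the other strand, and the strand setting of the counting is not given in the sources used here.

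The 15 CEP genes of appendages, transition zone, satellites and cilium divided, with 11 lower, 3 higher and 1 not called, and their median log2 fold change was -0.44. Beside these counts, 37.1% of all tested genes were lower and 36.9% higher, and 74.0% were called in either direction. CEP128, a protein of the subdistal appendages that anchor microtubules, had 4.31 and 4.83 CPM in shp63 libraries against 12.5 and 12.5 CPM in shControl libraries. CEP78, a protein of the centriole wall mutated in cone-rod dystrophy with hearing loss, had 14.1 and 15.1 CPM in shp63 libraries against 32.3 and 32.8 CPM in shControl libraries. CEP83, at the root of the distal appendages that dock the cilium, had 8.19 and 9.13 CPM in shp63 libraries against 16.3 and 16.4 CPM in shControl libraries. In all 3 the shp63 libraries lay far below the shControl libraries, and the levels were 2.74-fold, 2.23-fold and 1.89-fold lower. The adjusted p was 4.78e-13 for CEP128, 1.06e-14 for CEP78 and 7.11e-11 for CEP83 (edgeR with Benjamini-Hochberg).

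Other appendage genes fell less. CEP164, the distal appendage protein that recruits the ciliary kinase TTBK2, and CEP89, another distal appendage protein, fell 1.53-fold and 1.44-fold. CEP170, a subdistal appendage protein, fell 1.55-fold, with some uncertainty in read assignment because CEP170P1 is its pseudogene copy. The transition zone gene CEP290, mutated in several ciliopathies, fell 1.35-fold, and CEP162, which helps place the transition zone, fell 1.42-fold. CEP350, a large centriolar protein, fell 1.28-fold, CEP131 of the centriolar satellites fell 1.23-fold, and CEP41, needed for tubulin glutamylation in cilia, fell 1.19-fold.

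The 3 CEP genes that rose all belonged to this group, CEP170B and CEP19 among them. CEP170B, the paralog of CEP170, had 110 and 106 CPM in shp63 libraries against 90.9 and 94.0 CPM in shControl libraries, a 1.17-fold rise (log2 fold change 0.22, SE 0.037, adjusted p = 1.12e-05, edgeR with Benjamini-Hochberg). CEP19, which helps start cilium formation, had 2.58 and 1.97 CPM in shp63 libraries against 1.51 and 1.66 CPM in shControl libraries (adjusted p = 0.00692, edgeR with Benjamini-Hochberg). The shp63 libraries were the higher ones in both, by a narrow margin for CEP19. CEP19 was not called by DESeq2 (adjusted p = 0.0707). Its call was also lost without shp63 replicate 1 (log2 fold change 0.32, adjusted p = 0.168, edgeR with Benjamini-Hochberg). CEP112 had 3.40 and 3.61 CPM in shp63 libraries against 3.19 and 2.86 CPM in shControl libraries and did not pass (adjusted p = 0.123, edgeR with Benjamini-Hochberg).

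**Figure D2:**
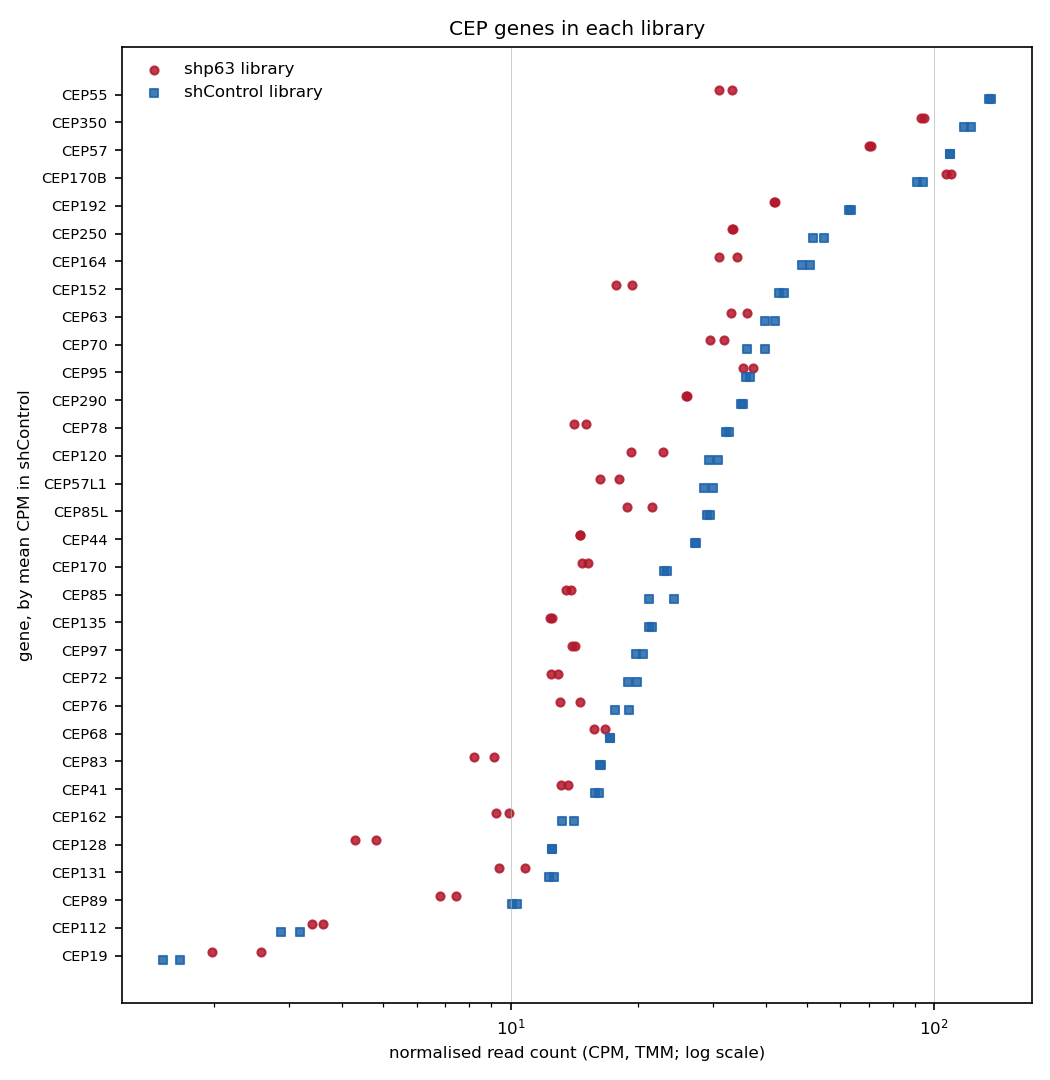
Normalised read count (x axis, CPM on a log scale) of 32 CEP genes (y axis, ordered by shControl level) in each of the 4 libraries. Circles are shp63 and squares shControl libraries. CEP55 shows the widest gap (31.1 and 33.3 against 135 and 136 CPM), and the groups overlap for CEP95.

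Of the 7 CEP genes of the linker, microtubule anchoring and division, 5 fell, CEP55 among them, and 2 did not pass (median log2 fold change -0.54). Among all tested genes 37.1% fell and 36.9% rose, so that 74.0% were called in either direction. With 7 genes, the counts are too few to be set against those shares and are no result about this group. CEP250, the main protein of the linker that ties the centriole pair together, had 33.5 and 33.3 CPM in shp63 libraries against 54.9 and 51.6 CPM in shControl libraries, a 1.59-fold lower level. CEP72, which recruits matrix proteins to the spindle pole, fell 1.53-fold, CEP85L, the paralog of CEP85, fell 1.45-fold, and CEP70, a gamma-tubulin binding protein, fell 1.24-fold. CEP68, another linker protein, had 15.7 and 16.7 CPM in shp63 libraries against 17.2 and 17.2 CPM in shControl libraries (adjusted p = 0.203, edgeR with Benjamini-Hochberg). CEP68 was called lower with plain library totals (log2 fold change -0.17, adjusted p = 0.0123), which shift all genes downward by 0.09 on the log2 scale. CEP95 had 37.4 and 35.4 CPM in shp63 libraries against 35.9 and 36.8 CPM in shControl libraries, so that the groups overlapped (adjusted p = 0.988, edgeR with Benjamini-Hochberg). Of CEP72's exon bases, 11.3% also lie in exons of TPPP on the other strand.

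All 8 augmin genes fell, where 37.1% of all tested genes did. The median log2 fold change of the 8 genes was -0.69, and their adjusted p-values ran from 1.05e-12 to 6.36e-08 (edgeR with Benjamini-Hochberg). Augmin is built from a part that binds the microtubule and the gamma-tubulin complex (HAUS2, HAUS6, HAUS7 and HAUS8) and a part that forms its forked end (HAUS1, HAUS3, HAUS4 and HAUS5). The summed level of the 8 genes was 158 and 162 CPM in shp63 libraries against 249 and 255 CPM in shControl libraries, or 63.5% of the control level.

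HAUS8, the main microtubule-binding subunit, had 4.69 and 4.33 CPM in shp63 libraries against 10.8 and 12.1 CPM in shControl libraries. HAUS7 had 7.32 and 8.12 CPM in shp63 libraries against 12.6 and 13.8 CPM in shControl libraries. HAUS6, which binds the gamma-tubulin adaptor NEDD1, had 28.0 and 28.1 CPM in shp63 libraries against 43.0 and 46.1 CPM in shControl libraries. These 3 subunits of the microtubule-binding part fell 2.54-fold, 1.71-fold and 1.59-fold, and HAUS8 had the largest fall of the 8. HAUS2, the fourth subunit of that part, had 24.7 and 23.3 CPM in shp63 libraries against 31.7 and 32.5 CPM in shControl libraries, a 1.34-fold lower level.

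In the forked part, HAUS5 had 9.98 and 10.6 CPM in shp63 libraries against 20.7 and 20.2 CPM in shControl libraries. HAUS4 had 38.2 and 39.3 CPM in shp63 libraries against 64.1 and 62.3 CPM in shControl libraries. The falls were 1.99-fold and 1.63-fold, each far larger than the spread between replicates. HAUS3 had 21.8 and 22.6 CPM in shp63 libraries against 32.7 and 34.3 CPM in shControl libraries. HAUS1 had 23.5 and 25.6 CPM in shp63 libraries against 33.3 and 33.9 CPM in shControl libraries. These fell 1.51-fold and 1.37-fold, so that both parts of the complex held a subunit with a fall near or above 2-fold and a subunit with a fall under 1.4-fold. Read assignment is uncertain for HAUS3, HAUS7 and HAUS4. Their overlaps with exons of other genes on the same strand came to 49.7%, 35.7% and 34.1% of the exon bases. The other genes were POLN and a further gene for HAUS3, and TREX2 for HAUS7. Overlaps with several genes were added up, so bases shared by them may count more than once. For HAUS2, 16.5% of the exon bases lie in exons of a gene on the other strand.

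Genes of the gamma-tubulin complex moved both ways, with 3 lower and 2 higher (median log2 fold change -0.26). Of all tested genes 37.1% were lower and 36.9% higher. With 5 genes, these counts are too few to be set against those shares and are no result about the complex. TUBGCP2 and TUBGCP3 form the small complex with gamma-tubulin, and TUBGCP4, TUBGCP5 and TUBGCP6 complete the ring. TUBGCP3 had 47.8 and 48.1 CPM in shp63 libraries against 69.4 and 72.2 CPM in shControl libraries, a 1.48-fold fall. Its partner TUBGCP2 had 64.6 and 63.4 CPM in shp63 libraries against 57.0 and 57.5 CPM in shControl libraries, a 1.12-fold rise (adjusted p = 0.00156, edgeR with Benjamini-Hochberg). Thus the members of the small complex were called in opposite directions, and neither pair of libraries overlapped.

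Among the ring-completing genes, TUBGCP4 had 30.1 and 31.9 CPM in shp63 libraries against 48.2 and 49.4 CPM in shControl libraries, a 1.58-fold fall. TUBGCP5 had 32.8 and 34 CPM in shp63 libraries against 40.3 and 39.9 CPM in shControl libraries, a 1.20-fold fall. TUBGCP6 had 60.6 and 53.6 CPM in shp63 libraries against 51.5 and 52.4 CPM in shControl libraries (log2 fold change 0.14, adjusted p = 0.0199, edgeR with Benjamini-Hochberg). The call of TUBGCP6 rested on the higher shp63 library and was lost without it (adjusted p = 0.367), without shControl replicate 1 (adjusted p = 0.0775) and with plain library totals (adjusted p = 0.426, edgeR with Benjamini-Hochberg). TUBGCP2 also lost its call with plain library totals (log2 fold change 0.07, adjusted p = 0.114, edgeR with Benjamini-Hochberg). The overlaps of TUBGCP4 with exons of TP53BP1 and ZSCAN29 on the other strand, added up, came to 34.3% of its exon bases. The summed level of the 5 genes was 236 and 231 CPM in shp63 libraries against 266 and 271 CPM in shControl libraries, or 86.8% of the control level.

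**Figure D3:**
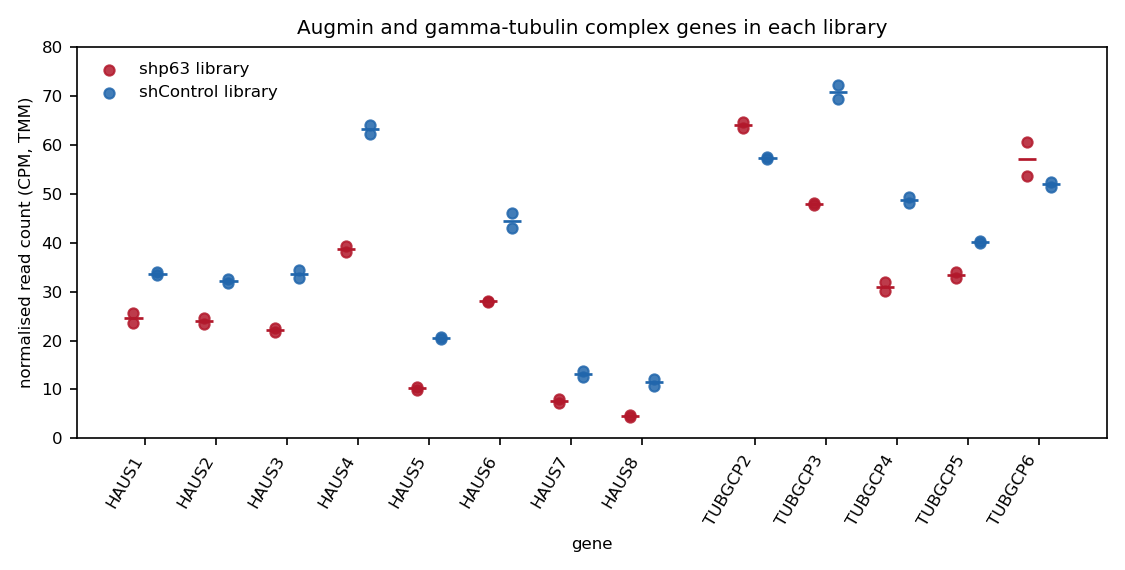
Normalised read count (y axis, CPM) of the 8 augmin and 5 gamma-tubulin complex genes (x axis) in each library, with horizontal lines at the group means. For each gene the shp63 libraries are drawn left of the shControl libraries. All 8 HAUS genes are lower in shp63, while TUBGCP2 and TUBGCP6 are higher.

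Levels were compared between genes per kilobase of the GENCODE canonical transcript. In shControl CEP55 ranked first of the 46 genes (50.9 CPM per kb), ahead of HAUS4 (39.8), CEP57 (34.7) and HAUS1 (31.4). In shp63 CEP55 ranked 8th (12.1 CPM per kb), and HAUS4 (24.4), HAUS1 (22.9) and CEP57 (22.4) led. The augmin genes spanned 2.38 to 24.4 CPM per kb in shp63 and 4.73 to 39.8 CPM per kb in shControl. HAUS8 ranked 28th in shp63 and 17th in shControl. The lowest genes were CEP128 in shp63 (0.990 CPM per kb) and CEP19 in shControl (0.735 CPM per kb). These lengths may differ from the annotation used for counting, which is not given in the sources used here.

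**Figure D4:**
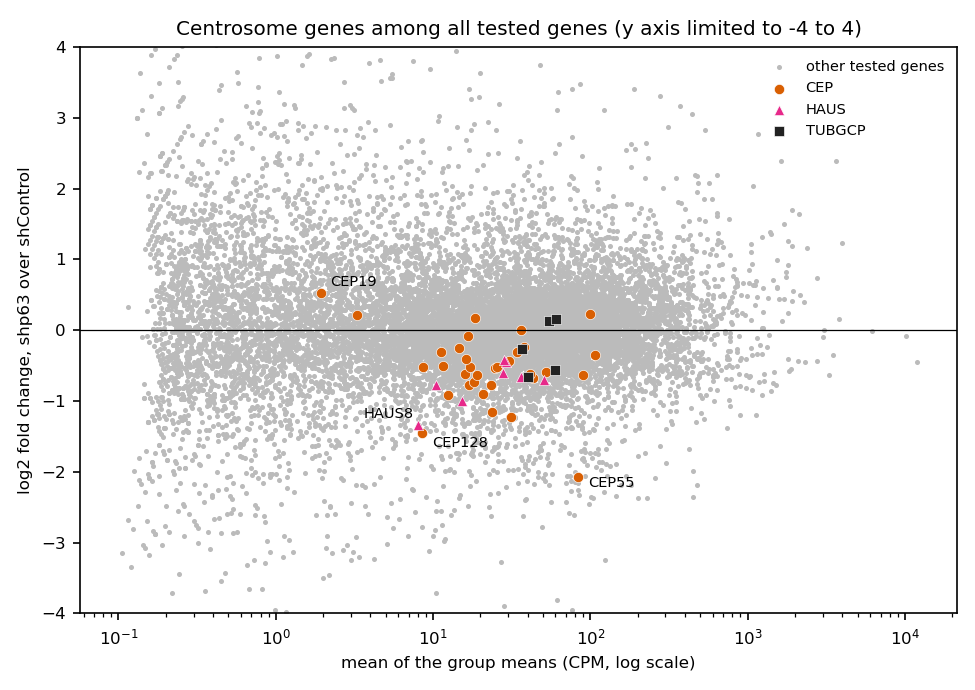
Log2 fold change (y axis, shp63 over shControl, limited to -4 to 4, so that genes beyond are not drawn) against the mean of the group means (x axis, CPM, log scale) for the tested genes, with CEP, HAUS and TUBGCP genes in colour. The coloured points lie between -2.07 and 0.52, most of them below 0.

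Partner genes were then read from the same fit, with the 46 genes left out of each list. Beside the counts of each partner and marker list below, 37.1% of all tested genes fell and 36.9% rose. Of 21 partners in centriole duplication and elongation, 17 fell, 2 rose and 2 did not pass (median log2 fold change -0.89). STIL, which assembles the cartwheel, had 22.0 and 21.9 CPM in shp63 libraries against 59.5 and 59.6 CPM in shControl libraries. PLK4, the kinase that starts duplication, had 14.5 and 14.7 CPM in shp63 libraries against 43.4 and 46.0 CPM in shControl libraries. The 2 that rose were POC1B, a centriole stability gene at 39.3 and 42.5 CPM in shp63 libraries against 25.8 and 26.3 CPM in shControl libraries, and SPICE1 at 33.3 and 31.3 CPM in shp63 libraries against 22.2 and 21.9 CPM in shControl libraries. STIL and PLK4 fell, and so did CEP152, CEP85 and CEP192, members that bind one or the other. The part of this binding in the falls was not tested.

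Of 16 pericentriolar matrix and gamma-tubulin ring partners, 12 fell, 2 rose and 2 did not pass (median log2 fold change -0.62). PLK1, the kinase that enlarges the matrix before mitosis, had 33.9 and 33.6 CPM in shp63 libraries against 173 and 175 CPM in shControl libraries. NEK2, the kinase that dissolves the CEP250 linker, had 11.7 and 13.3 CPM in shp63 libraries against 66.7 and 64.3 CPM in shControl libraries. TUBG1, the main gamma-tubulin gene, fell by 0.34 on the log2 scale, while TUBG2, its paralog, rose by 0.39 and NEK9 by 0.22. The adaptor NEDD1 fell by 0.72 on the log2 scale and the matrix scaffold PCNT by 0.82.

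Of 15 tested partners of appendages and linker, 12 fell, 1 rose and 2 did not pass (median log2 fold change -0.46). NEK2 and the centriolin gene CNTRL had the smallest adjusted p-values among those that fell, and CNTRL had 9.86 and 9.19 CPM in shp63 libraries against 28.5 and 28.3 CPM in shControl libraries. CCDC68, a subdistal appendage gene, was the 1 that rose, with 35.8 and 37.4 CPM in shp63 libraries against 12.7 and 14.3 CPM in shControl libraries. Of 15 tested centriolar satellite partners, 8 fell, 1 rose and 6 did not pass (median log2 fold change -0.26). Called in either direction were 9 of these 15, where 74.0% of all tested genes were called. TBC1D31 and FOPNL fell by 0.91 and 0.64 on the log2 scale, and OFD1, a gene of centrioles and satellites, rose by 0.45. Of 8 CEP-type genes that the table lists under another symbol, 7 fell and 1 (C3orf14) did not pass, and CNTRL and CCP110, which caps centrioles, fell by 1.57 and 1.01 on the log2 scale.

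Spindle assembly genes that act with augmin fell more. Of 18, 17 were lower and 1 higher, and the median log2 fold change was -1.70. The spindle pole gene ASPM had 64.6 and 66.5 CPM in shp63 libraries against 343 and 334 CPM in shControl libraries. TPX2, which starts branched microtubules together with augmin, had 96.0 and 100 CPM in shp63 libraries against 413 and 422 CPM in shControl libraries. CLTC, the clathrin heavy chain gene, was the 1 that rose, by 0.27 on the log2 scale. Many of these partners are also known as general mitotic genes.

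Proliferation markers moved with the members. All 12 markers of G2 and mitosis fell (median log2 fold change -2.02), and their summed level was 720 to 749 CPM in shp63 libraries and 2937 to 2991 CPM in shControl libraries. CCNB1, encoding cyclin B1, and TOP2A, encoding a DNA topoisomerase, fell by 2.35 and 2.18 on the log2 scale. All 12 markers of S phase fell (median log2 fold change -0.85), with summed levels of 970 to 1016 CPM in shp63 libraries and 1725 to 1789 CPM in shControl libraries. Of these, TYMS and RRM1, enzymes of nucleotide synthesis, fell by 1.41 and 1.08 on the log2 scale. The part of these markers in the falls of the CEP, HAUS and TUBGCP genes was not tested. CEP55, at -2.07, was the 1 member with a log2 fold change within the range of the G2 and mitosis markers (-2.35 to -1.57). The S phase markers ranged from -1.41 to -0.40. The members ranked 3 to 32 by size of fall, from HAUS8 (-1.34) to CEP76 (-0.41), lay within that range. For comparison, 3.92% of all tested genes had a lower log2 fold change than HAUS8, and 21.9% had a lower one than CEP76.

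**Figure D5:**
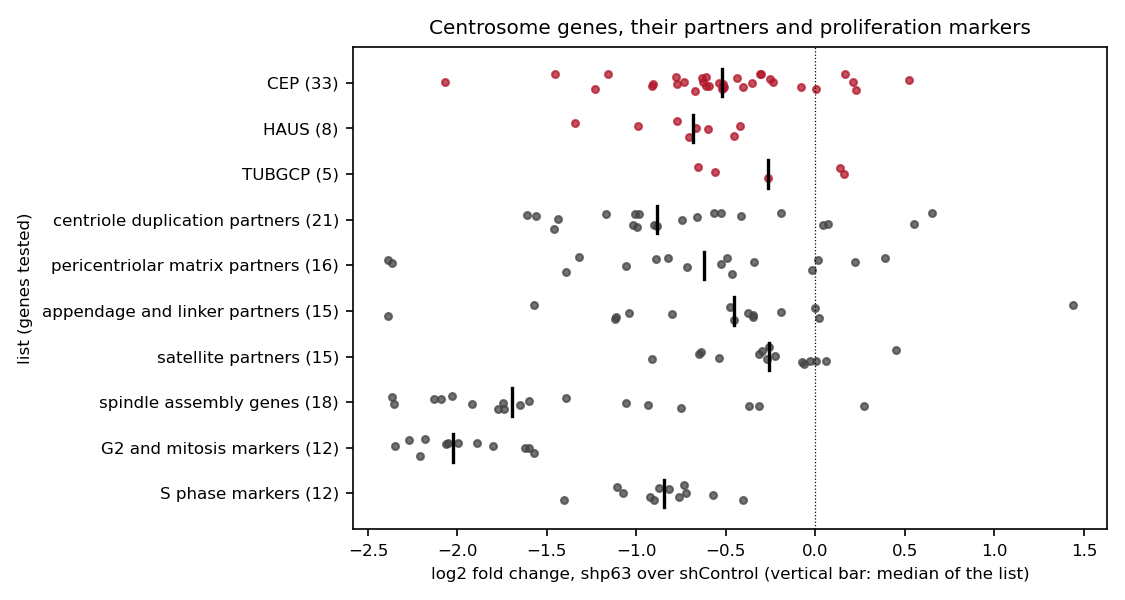
Log2 fold change (x axis, shp63 over shControl) of each tested gene in the CEP, HAUS and TUBGCP families (red) and in lists of partners and proliferation markers (grey, y axis with the number of genes), with a vertical bar at the median of each list. Medians run from -0.26 for TUBGCP and for satellite partners to -2.02 for G2 and mitosis markers.

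Centrioles are also made in number by multiciliated cells, so markers of other cell types were read. Of 12 multiciliated cell markers in the table, 8 were tested, 4 rose and 2 fell. GMNC, CCDC67 (the deuterosome gene) and TEKT1 were at 0 in all 4 libraries, and FOXJ1 fell to 0.0961 and 0.140 CPM in shp63 libraries, against 0.397 and 0.428 CPM in shControl libraries. CCNO had 20.3 and 19.1 CPM in shp63 libraries against 8.80 and 9.82 CPM in shControl libraries, and MCIDAS had 5.88 and 6.78 CPM in shp63 libraries against 3.21 and 3.61 CPM in shControl libraries. RSPH1 had 2.25 and 2.21 CPM in shp63 libraries against 1.10 and 1.04 CPM in shControl libraries, and DNAH5 had 5.34 and 5.42 CPM in shp63 libraries against 3.88 and 3.83 CPM in shControl libraries. These 4 genes were the ones that rose, so the markers of this lineage did not move one way. TUBB4B, a tubulin gene of many cell types, held most of the summed level of 344 to 351 CPM in shp63 libraries and 514 to 518 CPM in shControl libraries.

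Of the 3 tested fibroblast markers, 2 fell (COL1A1 and PDGFRB), and DCN was at 0. The sum was 67.1 to 75.3 CPM in shp63 libraries and 97.3 to 102 CPM in shControl libraries, and COL1A1 made up nearly all of it. PDGFRB had at most 0.0961 CPM in shp63 and 0.451 CPM in shControl libraries. COL1A2, LUM, THY1 and VIM had at most 0.234 CPM in any library and were not tested. Of the 4 tested leukocyte markers, 3 rose (CD14, CD68 and LYZ) and 1 fell (ITGAM). LYZ had at most 0.634 CPM in shp63 and 0.0186 CPM in shControl libraries. The leukocyte sum was 74.6 to 78.7 CPM in shp63 libraries and 12.9 to 14.4 CPM in shControl libraries, with PTPRC at most 0.154 CPM in shp63 and 0.108 CPM in shControl libraries. The 3 tested mesothelial markers, MSLN, UPK3B and PRG4, rose. The list summed to 630 to 636 CPM in shp63 libraries and 334 to 361 CPM in shControl libraries, nearly all from MSLN and UPK3B. PRG4 had 0.288 and 0.199 CPM in shp63 libraries against 0.108 and 0.0186 CPM in shControl libraries. CALB2, WT1 and LRRN4 were too low to be tested, at most 0.149 CPM in any library. CALB2 had 6 and 2 counts in shp63 libraries against 8 and 8 in shControl libraries, and WT1 had 0 and 0 against 3 and 4. Both were lower in shp63, but so few reads give no direction. The part of these markers in the results was not tested.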

How the data were processed

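The authors prepared stranded poly(A) libraries, aligned reads to GRCh37 (hg19) with TopHat2 and counted them per gene with HTSeq, per the labels and the design text. The submitters' processing notes give TopHat2 2.0.13 and HTSeq 0.6.1. Annotation and strand setting are not given in the sources used here. The deposited values are raw counts for 25369 genes, and all 4 columns were matched to samples by name. There are no rows without a gene.

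Counts were tested with edgeR 4.0.16 (R 4.3.3) with TMM factors, filterByExpr defaults (minimum count 10, minimum total 15), a robust quasi-likelihood fit with group as the only term, and Benjamini-Hochberg adjustment over 14901 genes. A call needs an adjusted p under 0.05, and glmTreat tested against a 1.5-fold change. Standard errors came from the fold change and its F statistic. CPM use TMM factors. P-values set the difference against the spread between 2 cultures per group, which edgeR shares across genes. The replicates of a group were not copies of one another (chi-square per degree of freedom between replicates 3.60 in shp63 and 3.30 in shControl). This check speaks only to duplicated files.

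The members and lists were chosen with earlier results of these data known. Per-library values are given for all HAUS and TUBGCP genes, for the CEP genes with the 8 largest called falls and rises and for those not called, and other genes by up to 2 of smallest adjusted p per direction and list. CEP63, CEP250 and genes tied to a member's role were named after their values were seen. The values of 1 member, included in all counts, are not reported here. Positions and exon overlaps come from GENCODE v44 lifted to GRCh37, and promoter windows from RefSeq (GRCh38.p14), placed in GRCh37 by exact match. Alternatives were RLE factors, library totals, 3 other filters, DESeq2 1.42.0, limma-voom (limma 3.58.1), a replicate block and each library left out.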

Additional observations from a re-analysis of the deposited data

How the results depend on the processing

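Of the 46 genes, 41 stayed on their side of the threshold under all 13 alternatives, and 5 did not, among them CEP19, CEP68, TUBGCP2 and TUBGCP6. No gene turned its direction except CEP95, which was never called and lay near 0. The count of members that fell was 38 to 39 throughout. The count that rose was 5, but 2 with library totals, 3 with DESeq2 and 3 to 5 with a library left out. The count lower beyond 1.5-fold was 16, 8 with DESeq2 and 22 with library totals. With library totals the median log2 fold change was -0.64 over all members, -0.61 for CEP, -0.77 for HAUS and -0.35 for TUBGCP genes (-0.55, -0.52, -0.69 and -0.26 with TMM). With a library left out it was -0.58 to -0.55 over all members and -0.56 to -0.53 for CEP genes. A fit that leaves out a library assumes that the lone sample varies like the other group. The cause of these shifts was not tested.

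The replicate numbers share only a number in the labels. With the replicate block 10858 genes were called (11033 without), and 38 members were lower and 5 higher. The deviations of same-numbered libraries correlated at -0.29 across genes, and the crossed pairing, chosen after seeing the data, called 11387 genes. Beside the values given here and in the report, the block changed no call of a member. CEP19 and CEP112, at 84 to 181 reads per library, are the least precise of the genes.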
